A study of Homo sapiens with 8 samples.

Results

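The genes described here package DNA into chromatin or write, erase and read its marks: histones, high mobility group (HMG) proteins, histone chaperones, nucleosome remodellers, and the enzymes and adaptors of histone acetylation, histone methylation and DNA methylation. They were chosen by symbol, from a fixed set of family prefixes and 17 single names, among all genes that carried a candidate site of N4-acetylcytidine (ac4C). That set was drawn up with earlier results of these data known. They numbered 43 of 1506 listed genes and held 61 of 1851 distinct sites. The cells were H1, an established human embryonic stem cell line, which the labels also describe by the source early embryo. The 8 libraries form 4 groups of 2 replicates, namely treated RNA and input RNA from unmodified wild-type (WT) cells and from cells with an shRNA against NAT10 (NAT10 KD). WT cells are described in PGM1 medium on Matrigel. NAT10 KD cells had been transduced for 48 h with an shRNA lentivirus that also carries GFP, enriched for GFP and then grown under puromycin at 0.5 µg/ml in the medium TeSR-E8, and no control shRNA is described for WT. The genotypes therefore also differ in transduction, selection and medium, and these differences cannot be told apart from that of NAT10.

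NAT10 is the acetyltransferase that writes ac4C on RNA, best known from ribosomal RNA and transfer RNA. In chemical ac4C sequencing, sodium cyanoborohydride reduces ac4C to a base that reverse transcriptase partly reads as T, so an acetylated C appears as a C-to-T change that input RNA lacks. Chromatin proteins hold particular interest in embryonic stem cells, whose chromatin is open and rich in remodellers. Some histone variants are made outside S phase from polyadenylated messages.

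Per the file headers, each genotype has 1 deposited list of sites with a position, strand, gene and score. That score comes from the authors, and it is used here to rank and describe sites within a list. The lists hold no read counts, conversion levels or values per replicate, so depth is not known for any site, and the values below carry no replicate error. Intervals cover counting error only, or for medians only the sampling of listed sites. Scores began at 1.30155 in the WT list and at 1.30173 in the NAT10 KD list, as if cut at a threshold, so absence from a list does not mean absence of acetylation. Of 5 stem cell markers, POU5F1, SOX2, DNMT3B and LIN28A had a listed site in at least 1 list and NANOG had none, which shows nothing about its level.

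What a listed site looks like could be read where RefSeq promoter windows of GRCh38.p14, the assembly of build hg38, cover it. These windows run from 250 bases before to 50 bases after a gene's start and covered 94 of the 1851 sites, and 0 of the 61 in chromatin genes. The base on the site's strand was C at all 94. The pair of covered sites nearest in function to the genes described here lay in INO80C and INO80B, subunits of the INO80 remodeller that the symbol rule leaves out, and they were picked after their values were seen. They are shown because one has the CCG context known for ac4C and the other does not. Each line gives 21 bases, 5′ to 3′ on the site's strand, with the listed base in capitals.
INO80C: cggaatagtcCggaacagcaa
INO80B: ttctagtcccCtttcctcgca
The INO80C window is chr18:35497813-35497833 on the minus strand (site at position 35497823, score 2.35, WT list). The INO80B window is chr2:74455089-74455109 on the plus strand (site at position 74455099, score 1.55, WT list). INO80B had a further WT site at position 74455500 (score 3.16, rank 126), whose sequence is not shown here. Of the bases shown, the INO80C base is the middle of the motif CCG and the INO80B base is not. Read on the site's strand only, CCG was found with its middle base at 9 of 92 covered sites whose neighbours are in the window (9.78%, 95% Clopper-Pearson interval 4.57 to 17.8). Of all C on the gene strand of all windows, 6.98% were the middle of CCG. Most of each window lies before the gene's start, whereas the sites were read from RNA, so these shares are of unlike bases. No sequence at a site in a chromatin gene was analysed here.

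The first comparison asked how many sites and genes of chromatin each list held. Chromatin genes had 29 sites in 25 genes in WT and 38 sites in 31 genes in NAT10 KD. The ratio of NAT10 KD to WT sites was 1.31, with an exact 95% interval of 0.787 to 2.20, beside 0.945 over all sites of both lists. The interval includes equal numbers, so no difference in number could be read at this size. Both lists were dominated by low scores. Only 12 of the 29 WT sites (41.4%) and 13 of the 38 NAT10 KD sites (34.2%) scored at least 2, beside 33.7% and 31.9% of all sites. The median score was 1.81 in WT (interval from order statistics 1.51 to 2.69) and 1.64 in NAT10 KD (1.41 to 2.15), beside 1.70 and 1.72 over all sites. Both intervals of the median include the value of the whole list.

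By role, the listed genes were 4 histones, 4 HMG genes, 6 histone chaperones, 9 remodellers, 12 genes of histone acetylation and 8 of methylation. The RefSeq gene table holds 261 protein-coding genes whose symbols fit the rule, and 42 of them had a listed site (16.1%, Clopper-Pearson interval 11.9 to 21.1), beside 7.08% of all protein-coding genes. The symbol rule was drawn up with earlier results of these data known, so the interval does not show an excess of chromatin genes. Expression was not analysed here, and a gene must be read to be listed, so its part in these shares was not tested. Chaperones (26.1% of 23), remodellers (26.5% of 34), acetylation genes (26.1% of 46) and HMG genes (27.3% of 11) had similar shares. The share was 11.8% of 68 methylation genes (5.22 to 21.9) and 5.06% of 79 histones (1.40 to 12.5), and no difference between roles was tested. Of the 79 histone genes, 57 have symbols of clustered histones, whose messages mostly lack a poly(A) tail.

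**Figure D1:**
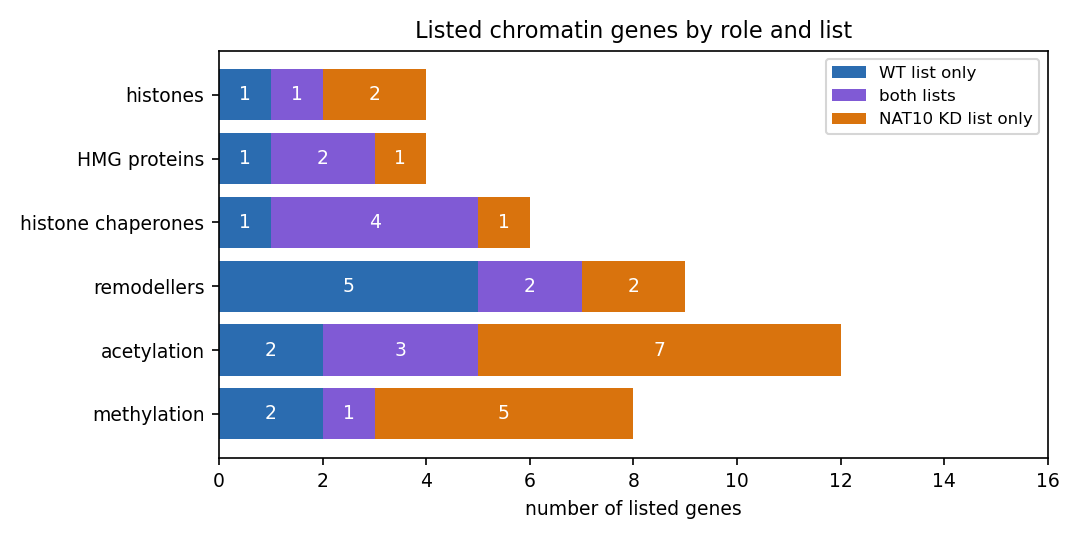
The bars count listed chromatin genes (x axis, number of genes) in each of 6 roles, split by the list or lists that hold the gene. Genes found in WT alone and in NAT10 KD alone number 5 and 2 among remodellers, 2 and 7 among acetylation genes, and 2 and 5 among methylation genes. They number 1 and 2 among histones, 1 and 1 among HMG genes, and 1 and 1 among chaperones. Over all 1506 genes, 43.9% were in WT alone and 41.4% in NAT10 KD alone, and no difference between roles was tested.

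Of the 43 genes, 13 were in both lists (30.2%, Clopper-Pearson interval 17.2 to 46.1), beside 14.7% of all 1506 genes. The count was 5 at a score of at least 2, and 8 without pseudogenes and genes with a pseudogene named after them. Shares of all genes at these settings are not given here, so these counts cannot be set beside the 14.7%. The WT list alone held 12 (27.9%, 15.3 to 43.7, beside 43.9% of all genes), and the NAT10 KD list alone held 18 (41.9%, 27.0 to 57.9, beside 41.4%). The intervals for genes in both lists and in WT alone leave out the shares of all genes. The genes were chosen with earlier results known, so these intervals test no difference. A site at the identical base and strand was shared by 6 of the 13: H3-3B, HMGA1, HMGN1, ANP32B, RBBP4 and HDAC2. Those 6 sites were 9.84% of the 61 distinct sites, beside 5.62% of all distinct sites, and 2 were left without genes that have named pseudogenes. They were 20.7% of the WT sites (7.99 to 39.7, beside 10.3% of the whole list) and 15.8% of the NAT10 KD sites (6.02 to 31.3, beside 10.9%). The intervals of the site shares include the values of the whole lists. The shared sites fell in histone, HMG, chaperone and deacetylase genes. Remodellers and methylation genes had 0 among 13 and 9 distinct sites, numbers too small to set apart from the 5.62% of all sites.

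**Figure D2:**
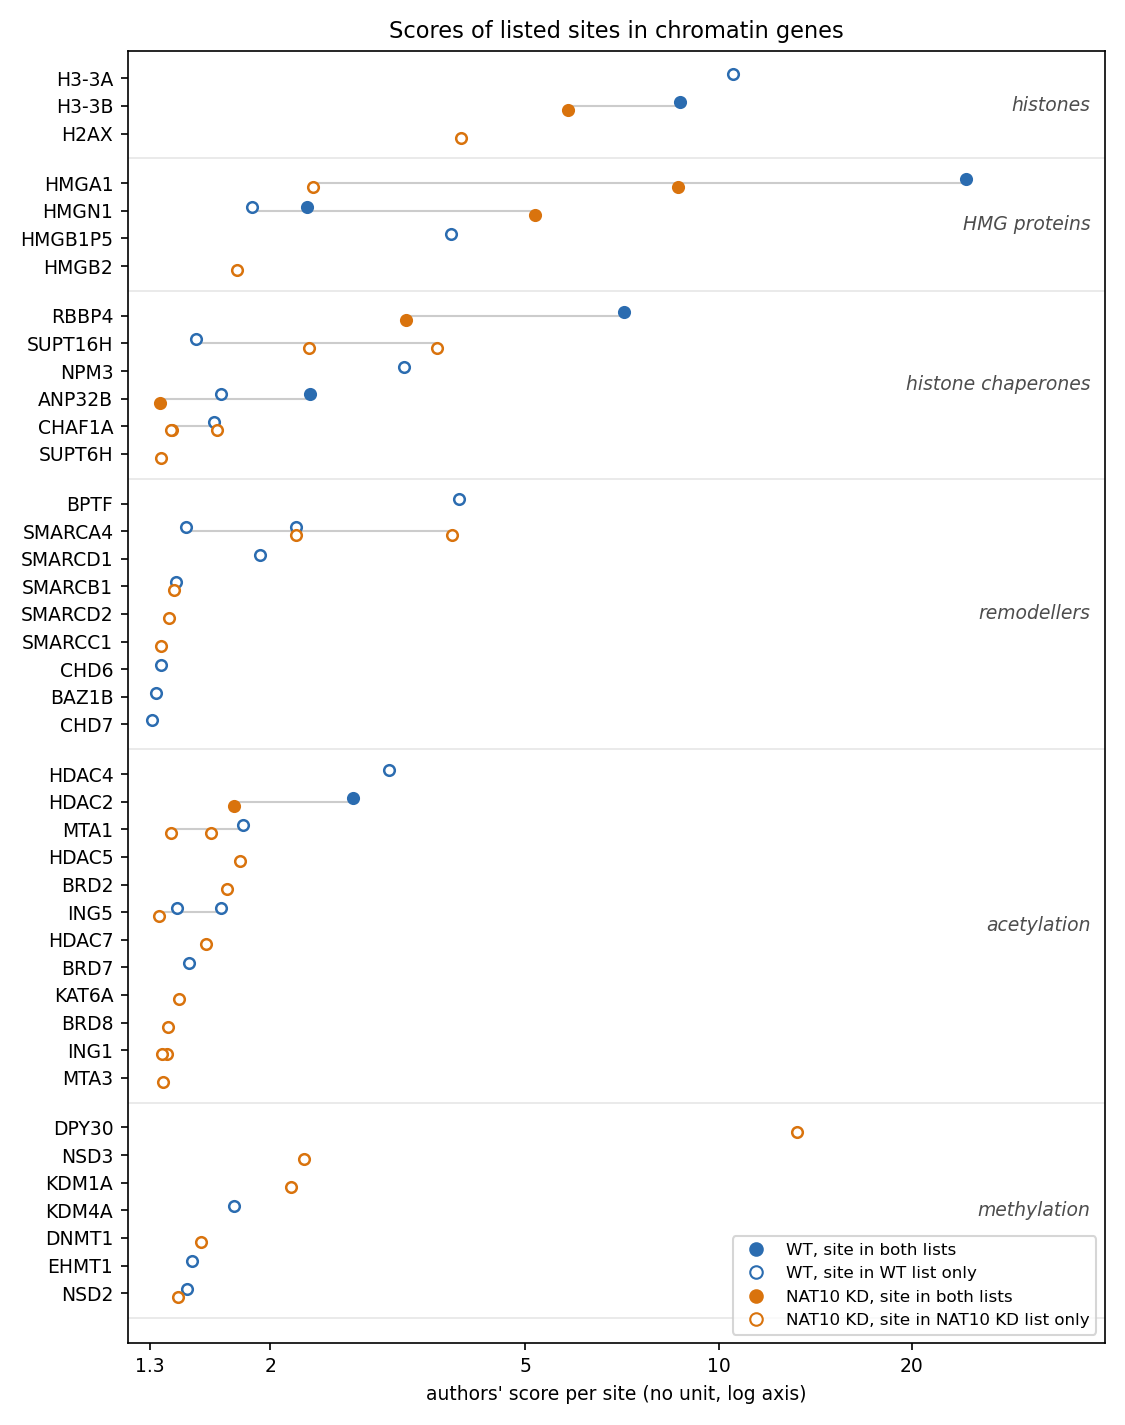
Each circle is a listed site of a chromatin gene, placed by the authors' score (x axis, no unit, log scale) and grouped by role, with WT in blue and NAT10 KD in orange. Filled circles are sites in both lists. The scores of 41 of the 43 genes are drawn, and most lie below 2, while HMGA1, H3-3A and DPY30 reach 24.3, 10.5 and 13.3.

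Histones wrap DNA, and the listed ones described here were variants. H3-3A and H3-3B encode the same protein, histone H3.3, which is laid down outside replication at active genes. H3-3B had 1 site, 68 bases from the 5′ end of the gene (chromosome 17, position 75779711, minus strand, 2.03% along its span of 3346 bases). It scored 8.72 in WT, rank 24 of 1005, and 5.83 in NAT10 KD, rank 36 of 950. Its twin H3-3A had a site in WT only, 2552 bases from the 5′ end (chromosome 1, position 226064383, plus strand), with a score of 10.5 and rank 21. The H3.3 genes therefore gave the highest scores of the histones, and the gene listed in both genotypes carried its site close to its start. No pseudogene bears the symbol of either gene, but copies under other names were not counted, so reads of copies cannot be set aside here.

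H2AX, the variant that is phosphorylated at DNA breaks, had a site in NAT10 KD only (chromosome 11, position 119095215, minus strand, score 3.97, rank 67). It lay 250 bases from the 5′ end of this intronless gene, and the span of DPAGT1, on the same strand, also covers it, so reads of either gene could have placed it. Of the 57 genes whose symbols mark clustered histones, 0 were listed in either genotype. The labels give the molecule as polyA RNA, so these lists do not show that such messages lack ac4C.

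HMG proteins bend or loosen chromatin without being histones. HMGA1, which binds AT-rich DNA in the minor groove, held the highest score of any chromatin gene. Its site 1375 bases from the 3′ end (chromosome 6, position 34244856, plus strand, 85.3% along the gene) scored 24.3 in WT, rank 12, and 8.65 in NAT10 KD, rank 25. NAT10 KD alone held a further HMGA1 site 194 bases downstream (position 34245050, score 2.33, rank 211). HMGA1 thus had candidate sites in the same stretch near its 3′ end in both lists, with the higher score at the shared site in WT.

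HMGN1, which binds nucleosome cores, differed from the other shared sites in its order of scores. Its site at position 39343140 of chromosome 21 (minus strand, 825 bases from the 3′ end) scored 2.29 in WT, rank 265, and 5.18 in NAT10 KD, rank 43. A further HMGN1 site, 4326 bases upstream at position 39347466, was in WT only (1.88, rank 381). HMGB2, a DNA-bending protein, was in NAT10 KD only at a score of 1.78, 98 bases from the 5′ end. HMGB1P5, a pseudogene of HMGB1, was in WT only at 3.83, rank 89 (chromosome 3, position 22381824, plus strand). The gene table names 38 pseudogenes after HMGN1, 8 after HMGA1 and 1 after HMGB2, and reads of such copies and of their parent genes can be placed on each other, so all HMG sites are uncertain in this respect.

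Histone chaperones carry histones to and from DNA. RBBP4, a histone-binding subunit shared by CAF-1, NuRD, NURF and PRC2, scored 7.12 in WT, rank 34, and 3.26 in NAT10 KD, rank 91. Its site lay 716 bases from the 5′ end of a gene of 35004 bases (chromosome 1, position 32651924, plus strand), and 7 pseudogenes are named after it. ANP32B, an acidic chaperone, had neighbouring WT sites 1 base apart near its 3′ end (chromosome 9, positions 98015549 and 98015550, plus strand), at scores of 2.31, rank 260, and 1.68, rank 523. The former was also in NAT10 KD at 1.35, rank 866. RBBP4 and ANP32B both scored higher in WT, at opposite ends of their genes.

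The remaining chaperones were in both lists at different positions or in 1 list. CHAF1A, the large subunit of CAF-1, which loads new histones behind the replication fork, had 4 sites on chromosome 19 (plus strand). The WT site at position 4432182 (1.63, rank 556) lay 201 bases from the NAT10 KD site at position 4431981 (1.40, rank 779). Other NAT10 KD sites stood at positions 4429479 (1.41, rank 775) and 4442336 (1.65, rank 523). SUPT16H, a subunit of the histone chaperone FACT, had NAT10 KD sites 33 bases apart near its 3′ end (chromosome 14, positions 21352766 and 21352799, minus strand), at 2.30, rank 217, and 3.64, rank 77. Its WT site at position 21359491 (1.54, rank 661) was 6692 bases away. CHAF1A and SUPT16H had more sites in NAT10 KD than in WT, none of them at a WT position. Of all genes in both lists, 56.3% likewise had no shared position. NPM3, of the nucleoplasmin family, was in WT only at 3.23, rank 123 (chromosome 10, position 101781820, minus strand), and SUPT6H, an elongation factor and chaperone, in NAT10 KD only at 1.35.

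**Figure D3:**
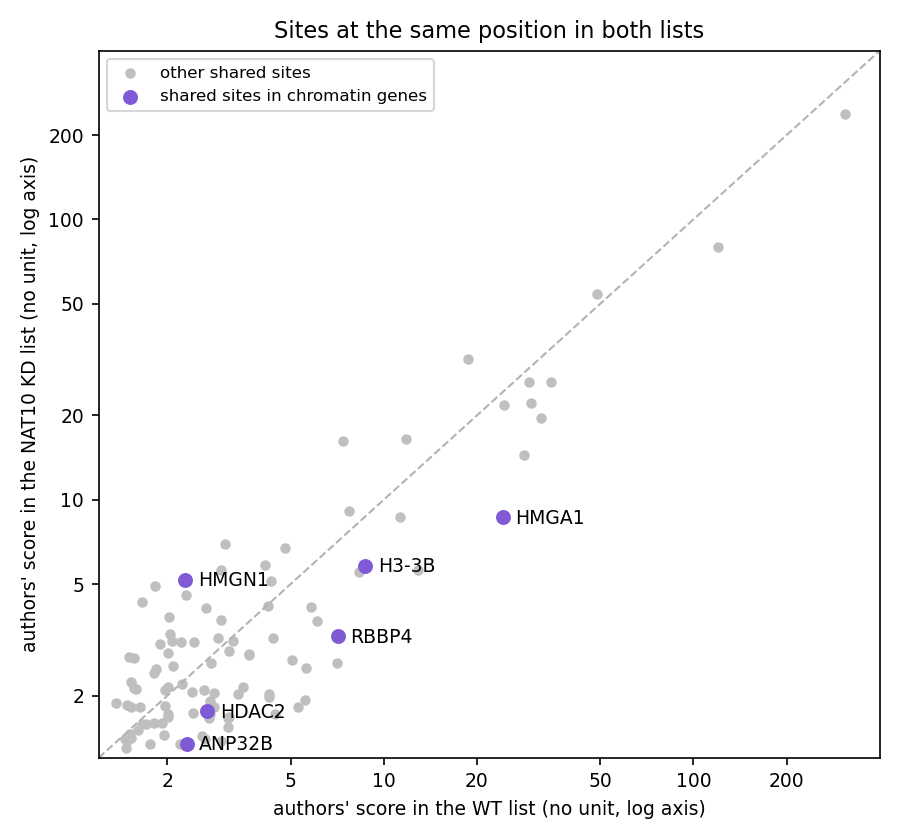
Each point is a site at the same position in both lists, with the authors' score in WT on the x axis and in NAT10 KD on the y axis (no unit, log scales), and the dashed line marks equal scores. The 6 shared sites of chromatin genes are named, and HMGN1 is the one above the line.

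Of the 6 shared sites, 5 had the higher score in WT and 1 in NAT10 KD. Over all 104 shared sites it was the higher in WT at 63.5%, and 6 sites are too few to set apart from that share. A score can depend on depth, which differs between lists in a way not given here, so these pairs measure no change in acetylation.

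Remodellers use ATP to move or eject nucleosomes. SMARCA4, the BRG1 ATPase of the BAF complex, had 4 sites spread over 56193 bases of chromosome 19 (plus strand). NAT10 KD held the pair nearer the 5′ end, at positions 10985320 (2.20, rank 231) and 10994965 (3.84, rank 70), and WT the pair nearer the 3′ end, at positions 11019695 (2.19, rank 289) and 11041513 (1.48, rank 734). The nearest WT and NAT10 KD sites were 24730 bases apart. SMARCB1, a core BAF subunit, also had a different site in each list, 40118 bases apart on chromosome 22 (plus strand): position 23793569 in WT (1.42, rank 810) and position 23833687 in NAT10 KD (1.42, rank 756). Both BAF genes were listed in each genotype at different bases, as were 56.3% of all genes in both lists.

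Other BAF subunits were in 1 list each. SMARCD1 was in WT (1.93), and SMARCC1 (1.35) and SMARCD2 (1.39) were in NAT10 KD. BPTF, the histone-reading subunit of the NURF remodeller, was in WT only at 3.94, rank 84, with its site 748 bases from the 5′ end of a gene of 158876 bases (chromosome 17, position 67826251, plus strand). The ISWI partner gene BAZ1B (1.33) and the chromodomain helicase genes CHD6 (1.35) and CHD7 (1.31) were also in WT only, at ranks of 965, 933 and 992 of 1005. Apart from SMARCA4 and BPTF, remodeller scores stayed below 2 in both lists.

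Acetylation opens chromatin, and deacetylases reverse it. HDAC2, a class I deacetylase of the NuRD and Sin3 complexes, had 1 site in both lists, 287 bases from the 5′ end (chromosome 6, position 113970861, minus strand). It scored 2.69 in WT, rank 182, and 1.76 in NAT10 KD, rank 440. The opposite-strand RNA HDAC2-AS2 covers the same position. Of the class IIa deacetylases, which shuttle between nucleus and cytoplasm, 3 were each in 1 list and HDAC9 in neither: HDAC4 in WT (3.07, rank 141, chromosome 2, position 239115264, minus strand), HDAC5 (1.79) and HDAC7 (1.59) in NAT10 KD. The HDAC7 site lay 131 bases from the 3′ end of the gene.

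The NuRD subunit gene MTA1 was in both lists at different positions of chromosome 14 (plus strand): position 105469480 in WT (1.81, rank 421), and positions 105454279 (1.40, rank 780) and 105463240 (1.62, rank 554) in NAT10 KD. MTA3, its relative, was in NAT10 KD only (1.36). ING5, a reader of methylated histone H3 in acetyltransferase complexes, had WT sites at positions 241689984 (1.43, rank 801) and 241702096 (1.68, rank 525) of chromosome 2 (plus strand). Its NAT10 KD site stood at position 241721378 (1.34, rank 877), 19282 bases from the nearest WT site. ING1, the reader in Sin3 deacetylase complexes, had NAT10 KD sites 103 bases apart on chromosome 13 (plus strand, positions 110719537 and 110719640), at 1.38, rank 816, and 1.36, rank 852. These genes all scored below 2, and MTA1 and ING5, the pair in both lists, had no shared position.

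The acetyltransferase gene KAT6A (1.44) and the bromodomain genes BRD2 (1.71) and BRD8 (1.38) were in NAT10 KD only. BRD7, a bromodomain subunit of the PBAF remodeller, was in WT only (1.49), 91 bases from the 5′ end, and 7 pseudogenes are named after it. Of the 12 acetylation genes, the WT list held 5 and the NAT10 KD list 10, and 3 were common to them. Of all genes, WT held 58.6%, NAT10 KD 56.1% and both lists 14.7%, and no difference between roles was tested. Only HDAC2 and HDAC4 had a site that scored at least 2, and both of those scores were in WT.

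Methylation of histones and DNA marks active and silent chromatin. DPY30, a core subunit of the COMPASS methyltransferase complexes that act on histone H3, had the highest score of any chromatin gene in NAT10 KD, 13.3 at rank 18 of 950, and no WT site. Its site lay 386 bases from the 5′ end of the gene (chromosome 2, position 32039449, minus strand). No other methylation gene came near that score. NSD3, an H3 methyltransferase, scored 2.26 and the demethylase gene KDM1A, also called LSD1, 2.15 in NAT10 KD only, with the KDM1A site 136 bases from the 5′ end.

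DNMT1, the maintenance DNA methyltransferase, was in NAT10 KD only (1.56). EHMT1, a methyltransferase of silent chromatin, and the demethylase gene KDM4A were in WT only (1.51 and 1.75), and the opposite-strand RNA KDM4A-AS1 covers the KDM4A site. NSD2, a relative of NSD3, was in both lists 1303 bases apart on chromosome 4 (plus strand): position 1916917 in WT (1.49, rank 724) and position 1918220 in NAT10 KD (1.44, rank 723). A further demethylase gene, in NAT10 KD only, is counted here and not described. The WT list held 3 of the 8 methylation genes and the NAT10 KD list 6, and NSD2 alone was common to them, beside 58.6%, 56.1% and 14.7% of all genes. The Polycomb genes EZH2, EED and SUZ12 were in neither list, like most methylation genes of the rule, of which 11.8% had a listed site. RBBP4, counted here as a chaperone and also a subunit of PRC2, was in both lists.

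The next comparison was of position along the gene. All 61 distinct sites were inside the RefSeq span of their gene. Of chromatin genes with an annotated strand, 32 of 32 matched the strand of their sites, as did 1230 of 1230 over all listed genes. Exons, introns and untranslated regions were not analysed here. Counted from the 5′ end, the median WT site lay at 47.8% of the span (interval from order statistics 12.9 to 79.5, 29 sites) and the median NAT10 KD site at 65.6% (42.3 to 85.3, 38 sites), beside 56.6% and 62.7% over all sites. The intervals overlap widely. Some sites share a gene or stand in both lists, and the intervals hold no replicate error, so they do not compare the genotypes. With the span cut into 3 equal parts from the 5′ end, WT had 11, 7 and 11 sites and NAT10 KD 9, 11 and 18.

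The ends of genes held shares of sites near those of the lists as a whole. Of the 61, 8 lay in the first 5% of the span (13.1%, beside 15.9% of 1790 sites in all genes) and 9 in the last 5% (14.8%, beside 11.6%). The sites in the first 5% belong to H3-3B, HMGB2, RBBP4, BPTF, BRD7, HDAC2, DPY30 and KDM1A. Of the 6 shared sites, H3-3B, RBBP4 and HDAC2 lay within the first 2.05%, and HMGA1, HMGN1 and ANP32B lay at 85.3% or beyond. Of the 101 shared sites of all genes with a position, 52, 23 and 26 lay in the 3 equal parts of the span from the 5′ end, so 6 sites are too few to tell a pattern of their own. Of the genes with shared sites, RBBP4, HMGA1, HMGN1 and ANP32B have pseudogenes named after them. Of all 43 chromatin genes, 10 have at least 1.

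**Figure D4:**
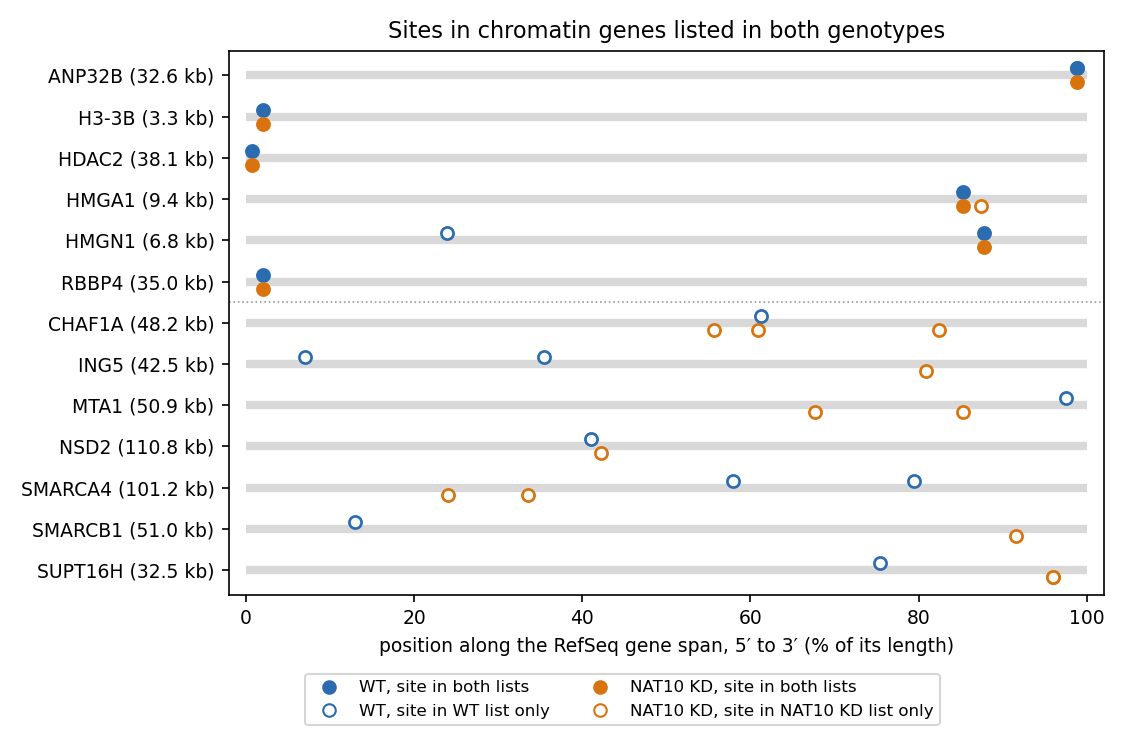
Each line is the RefSeq span of a chromatin gene listed in both genotypes, drawn from the 5′ to the 3′ end as a percentage of its length, with WT sites in blue and NAT10 KD sites in orange. Filled circles are sites in both lists, which lie toward 1 end of the gene in the 6 upper rows, whereas the 7 lower genes have different sites in each list. Sites a few bases apart, as in ANP32B and SUPT16H, overlap in the drawing.

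Several genes carried more than 1 site. Of the 43, 11 had at least 2 distinct sites (25.6%, Clopper-Pearson interval 13.5 to 41.2), beside 17.7% of all genes. CHAF1A and SMARCA4 had 4 each, and SUPT16H, ING5 and MTA1 had 3. Gaps between neighbouring sites of a gene ran from 1 base in ANP32B to 40118 bases in SMARCB1, and 4 of the 18 gaps were under 200 bases, in ANP32B, SUPT16H, ING1 and HMGA1. For the 7 genes in both lists without a shared position, the nearest WT and NAT10 KD sites were 201 bases apart in CHAF1A, 1303 in NSD2, 6240 in MTA1, 6692 in SUPT16H, 19282 in ING5, 24730 in SMARCA4 and 40118 in SMARCB1. These 7 were 53.8% of the 13 genes in both lists, near the 56.3% of all 222 such genes that had no shared position.

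Chromatin genes outside the symbol rule were counted in the same way. From a list of 113 Polycomb, cohesin, condensin, heterochromatin, lamin and other cofactor genes, 22 were listed (19.5%), beside 7.08% of all protein-coding genes. These 113 genes were chosen with earlier results of these data known, and the part of expression in this share was not tested. Of the 22, the WT list held 14 and the NAT10 KD list 11, beside 58.6% and 56.1% of all listed genes, with an overlap of 3. Those 22 held 28 distinct sites, of which 1 was in both lists, beside 14.7% of all genes and 5.62% of all distinct sites. In WT the highest scores belonged to DEK, a DNA-binding oncoprotein (6.17), TRIM28, the corepressor of zinc finger repressors (3.54), the de novo methyltransferase gene DNMT3B (3.53), the ATPase gene RUVBL1 (2.58) and the cohesin gene RAD21 (2.15). In NAT10 KD they belonged to ACTL6A, a subunit of BAF and INO80 (4.97), RAD21 (3.18), the condensin gene NCAPH (2.39), the lamin gene LMNB2 (2.19) and the topoisomerase gene TOP2A (1.70). RAD21, TOP2A and DNMT3B were in both lists, and the DNMT3B site at position 32780364 of chromosome 20 was shared, at 2.99 in WT and 1.37 in NAT10 KD.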

How the data were processed

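Per the labels' protocols, the libraries began from 30 µg of total RNA and capture of its mRNA. Some of it was set aside as input, the treatment with sodium cyanoborohydride lasted 20 min at 25 °C, and stranded libraries with a molecular identifier of 8 random bases were sequenced as paired reads of 150 bases. Build hg38 and the tools STAR 2.7.8a, SAMtools 1.12 and fastp 0.21.1 stand in the submitters' processing notes. Not given in the sources used here were the site caller, its filters, the use of input and identifiers, and the pooling of replicates. The authors deposited 1 list per genotype with a score per site, and the score's formula is not given. Its minimum is just above 1.30103, the −log10 of 0.05, so a −log10 p-value is possible, though no source says so. No replicate comparison was possible, and the labels do not say whether replicates were separate cultures.

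A site is 1 base, printed 1-based. Sites matched at identical position and strand (tolerance 0 bp) and genes by the lists' identifier. RefSeq's gene table (GRCh38.p14) gave gene spans and names of pseudogenes, matched by symbol for all 43 genes, and strand from the promoter table. A pseudogene counted as named after a gene only if its name was that gene's symbol followed by P and a number. Shares carry 95% Clopper-Pearson intervals, ratios the interval of the binomial split, and medians the binomial interval of order statistics. No p-value was computed. Python 3.11.15, pandas 2.3.3, NumPy 2.4.6, SciPy 1.17.1 and matplotlib 3.10.9 were used, and matching and intervals were tested on simulated data. The members, roles and gene lists were chosen with earlier results of these data known. Every member is named with its highest score per list, except 2 that are counted and not reported here. Position, strand and rank are given for members with shared sites, the 10 highest-scoring sites per list, members with several sites, and histones. Outside the rule, up to 5 genes per list were named.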

Additional observations from a re-analysis of the deposited data

How the results depend on the processing

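Of 21 alternatives, 16 left a value within its interval, or a count within 1.5 times. With a score at least 1 above the lowest listed, the ratio of NAT10 KD to WT sites in chromatin genes was 0.9 (9 and 10 sites), on the other side of equal numbers from 1.31, and both intervals include 1. At a score of at least 2, the genes in both lists numbered 5 in place of 13, and the median NAT10 KD position was 33.5% in place of 65.6%, over 13 sites. Without pseudogenes and genes that have a pseudogene named after them, an alternative chosen after seeing the data for these counts, 2 sites (H3-3B and HDAC2) and 8 genes were shared in place of 6 and 13. Fewer sites enter each of these alternatives. Pseudogene copies under other names were not counted, so H3-3B and HDAC2 are not shown to be free of copies. No paired analysis was possible because each genotype has 1 list with no values per replicate. Depth per site is not known, and 4 of the 61 sites lie over another annotated gene.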

Other observations

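Among the 92 listed sites of any gene with both neighbouring bases inside promoter windows, 47 were followed by G (51.1%, 95% Clopper-Pearson interval 40.4 to 61.7). The share was 19.9% of all C on the gene strand of all windows. Those windows lie mostly before gene starts, whereas the sites were read from RNA. The shares are therefore of unlike bases, and a preference of the sites for G was not tested. The covered sites lie mostly close to gene starts, where the windows are, and none of them is in a chromatin gene of the symbol rule.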
